A study of Canis lupus familiaris with 18 samples.

Results

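French bulldog and boxer high grade oligodendrogliomas (HGO) were compared with each other, with no other breed in the fit. The comparison holds 13 tumors: 9 French bulldog tumors from 10 libraries and 4 boxer tumors, together 14 of the 18 libraries of the series. The French bulldogs are numbers 1, 3, 4, 5, 7, 9, 10 and 11 and the sum of numbers 2 and 8, whose labels share a case number and which were counted as 1 tumor. French bulldog 6, whose library holds almost no transcripts of glial marker genes, was left out by the rule that defines the comparison. The boxers are numbers 1, 3, 4 and 5. Boston terriers 2, 6 and 7 (3 tumors), of another short-nosed breed, are set beside them and enter no French bulldog-boxer test.

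RNA was extracted from formalin-fixed, paraffin-embedded tissue of spontaneous forebrain tumors in pet dogs, and each tumor was sequenced once as bulk RNASeq apart from the shared case. All tumors carry the same diagnosis, so breed is the only factor in the labels. The labels give no treatment, age or sex for a library, and none was used here. The study states that all samples were taken before trial treatment. It also states that French bulldogs had a lower mean age than its boxers and Boston terriers, and that sex and tumor location differed. The groups were not matched for these, so breed is not separated from them here. Nothing in the labels ties a tumor to a germline genotype, so a group is a breed and not an allele.

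HGO is a malignant glioma whose cells resemble the oligodendrocyte lineage, the lineage that produces myelin in the brain. Cells of that lineage are set by transcription factors such as OLIG1, OLIG2 and SOX10, divide as precursors under the PDGF receptor PDGFRA, and switch on myelin genes as they mature. Short-nosed breeds are known for their high rate of glioma. French bulldogs are also a short-legged breed in which an extra, intronless copy of FGF4, a gene for a secreted fibroblast growth factor, is common, and reads from such a copy cannot be told apart from reads of the gene itself.

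The levels of glial markers follow in part from the rule, which left out the library without them, and are given as a description. OLIG2 had at least 1137 counts and SOX10 at least 1986 in each of the 13 tumors, PDGFRA had at least 2082, and the summed level of the 12 oligodendrocyte lineage factors measured was 1308 to 2555 CPM in French bulldogs and 1734 to 2221 in boxers. CPM are counts scaled to library size, here normalized by edgeR's TMM method over the tumors of the 3 breeds. Total counts on genes were 8.21 M to 17.9 M in French bulldogs, the highest being the summed case, and 8.99 M to 10.3 M in boxers. Their means differed by 2.31 M (p = 0.134, from all 715 splits of the tumors in a two-sided exact permutation test). Small non-coding RNAs took a share of 3.97% ± 0.522 (SD, n = 9) in French bulldogs. In boxers the share was 3.32% ± 0.465 (SD, n = 4). That difference had p = 0.0573 before and 0.168 after Benjamini-Hochberg adjustment over 5 measures of the libraries (exact permutation test, two-sided). Library names place all French bulldogs in one numbered series, boxers 1, 3 and 4 further along in numbers of their own and boxer 5 in a separate series, so breed and library number cannot be told apart, and what the numbers stand for is not stated. Apart from the shared case, nothing states that a library was repeated for a tumor, and p-values measure the spread between these tumors. In bulk tissue, fewer cells of a type and less RNA per cell cannot be told apart.

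No gene passed the test between the breeds. Of 29993 genes listed, 26824 had a count in these tumors and 17052 passed edgeR's filter on low counts, 11813 of them with a symbol. After Benjamini-Hochberg adjustment of the p-values from edgeR's quasi-likelihood test, 0 genes (0%) lay under 0.05, and the smallest adjusted p was 0.202. Without adjustment, 1204 genes (7.06%) had p under 0.05. French bulldogs had the higher level for 674 of them (3.95%) and boxers for 530 (3.11%). With limma-voom on the same genes, 0 passed adjustment and the same split was 447 higher and 715 lower, so which breed had more of these genes turned with the method. The levels of 120 genes (0.704%) did not overlap between the breeds: for 47 (0.276%) the French bulldogs were all above the boxers, and for 73 (0.428%) all below. The DESeq2 Wald test called 37 of the 19016 genes to which it gave an adjusted p (0.195%), 15 with the French bulldogs higher (0.0789%) and 22 with them lower (0.116%), and had 1957 genes with unadjusted p under 0.05. The genes below are therefore described by their values.

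**Figure D1:**
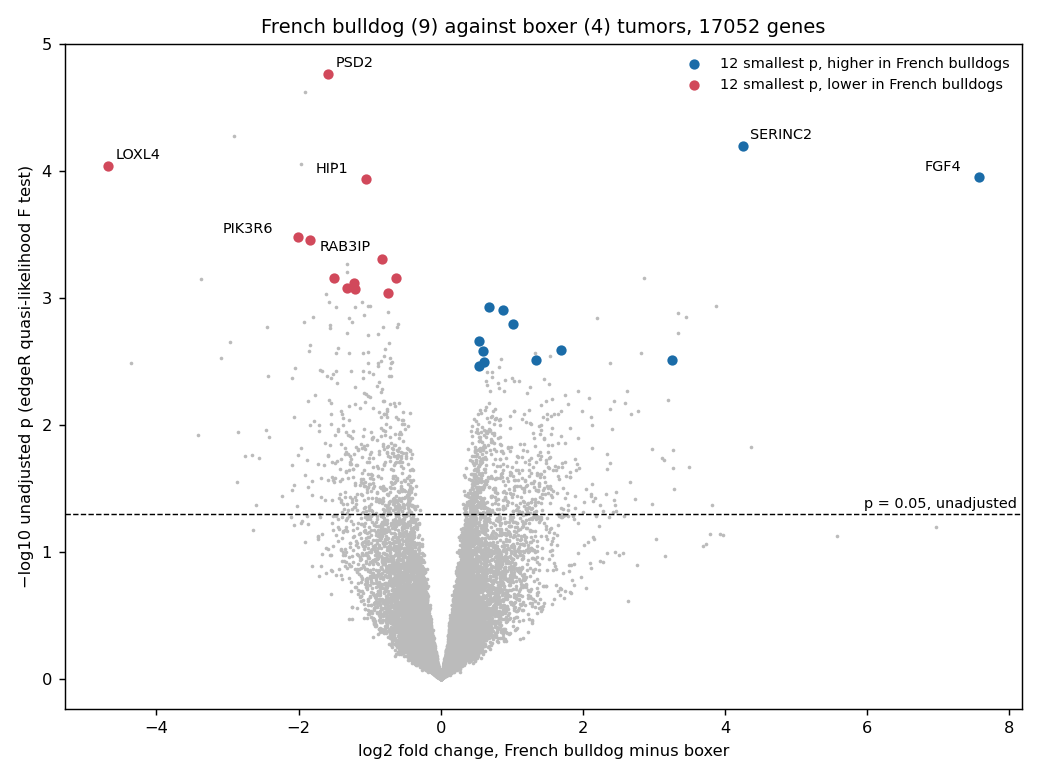
Log2 fold change between French bulldog (9) and boxer (4) tumors on the x axis and −log10 of the unadjusted p of edgeR's quasi-likelihood F test on the y axis, 1 point for each of 17052 genes. Colored points are the 12 genes with a symbol and the smallest p in each direction. FGF4 lies farthest to the right at 7.57 and LOXL4 farthest to the left at -4.68, and no point passed the adjusted threshold.

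FGF4 was the gene that most plainly set the breeds apart by presence. It had 2 to 65 counts in the 9 French bulldogs, with a median of 16, and 0 counts in every boxer. As a level, the lowest French bulldog was at 0.189 CPM, the median at 1.64 and the highest at 4.88, against a smallest level that the depth could show of 0.298 CPM on average in the boxers, taken as 3 counts per library and covering counting error only. French bulldog 1 was highest and French bulldog 4, with its 2 counts, lowest and itself under that limit. The breeds did not overlap, and the French bulldog mean was at least 7.06-fold higher than the limit in boxers. Its fitted log2 fold change of 7.57 (SE 1.32) rests on the zeros and is no bound, with an adjusted p of 0.217 by edgeR's quasi-likelihood test and 0.000289 by DESeq2. No position of the reads within the gene is given by the counts, so the gene and a copy of it were not separated.

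FGF ligands bind FGF receptors and signal through ERK. Of 9 FGF ligands tested, FGF4 was the only one with unadjusted p under 0.05, against 3.95% of all genes tested on the higher side, and 4 were higher and 5 lower in French bulldogs. FGF5, a ligand of the same family, was at 0 to 1.33 CPM in 8 French bulldogs and 0.369 to 1.34 CPM in boxers, and stood at 40.1 CPM in French bulldog 11 alone. FGF19, which lies next to FGF4 in mammalian genomes, did not pass the filter and reached no more than 0.202 CPM in any of the 13 tumors. Among 10 FGF receptors and co-receptors none had p under 0.05. FGFR1 was at 53.1 to 136 CPM in French bulldogs and 45.3 to 88.0 in boxers, and FGFR3 at 8.55 to 167 and 18.2 to 30.9 CPM. The 18 feedback and target genes of FGF and ERK signaling measured also had 0 members under that threshold, with a median log2 fold change of 0.11. DUSP6, the phosphatase that ERK induces against itself, had a French bulldog range of 30.7 to 161 CPM and a boxer range of 46.9 to 124 CPM.

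SERINC2, a membrane protein of the serine incorporator family, had the smallest p among genes higher in French bulldogs. It was a rare transcript, with 3 to 29 counts in each French bulldog and 0, 1, 0 and 1 in boxers 1, 3, 4 and 5. The breeds did not overlap. Its 122 pooled counts in French bulldogs and 2 in boxers gave a ratio of 23.6 per unit of library size, with a 95% counting interval of 6.38 to 197 (exact binomial) that covers counting error only and not the spread between tumors, and its adjusted p was 0.217 by edgeR's quasi-likelihood test. In Boston terriers 2, 6 and 7 it had 5, 0 and 13 counts.

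Among the 12 genes with a symbol and the smallest p on the higher side, 7 more lay above the boxers in all French bulldogs, by smaller amounts. RPS21, a protein of the small ribosomal subunit, was at 76.4 to 159 CPM in French bulldogs with a median of 92.3, and at 62.5, 45.7, 43.7 and 63.2 CPM in boxers 1, 3, 4 and 5 (log2 fold change 0.87, SE 0.217, edgeR adjusted p = 0.613). ZNF622, a zinc finger protein, was at 40.5 to 65.7 CPM against 27.8 to 36.8 CPM, a log2 fold change of 0.67. TSEN34, a subunit of the endonuclease that splices transfer RNA, was at 6.49 to 13.4 CPM against 3.27 to 4.94 CPM (1.01 on the log2 scale), and COX16, which takes part in the assembly of cytochrome c oxidase, at 1.79 to 7.96 CPM against 0.553 to 1.71 CPM (1.69). RNF168, a ubiquitin ligase of the response to DNA double strand breaks, METAP2, which removes the first methionine of new proteins, and EID1, an inhibitor of the acetyltransferase EP300, had log2 fold changes of 0.53, 0.59 and 0.54. MAPK6, the atypical MAP kinase ERK3, was at 68.5 to 109 CPM in French bulldogs and overlapped with boxer 4 (76.8 CPM), the other boxers lying at 46.7 to 62.9 CPM. All of these had adjusted p between 0.613 and 0.688 by edgeR's quasi-likelihood test. The remaining 2 of the 12 genes were multicopy small RNAs, a Y RNA (ENSCAFG00000028240) at 411 to 1460.1 CPM against 250 to 627 CPM and a U6 gene (ENSCAFG00000022993) at 0.0775 to 3.69 CPM against 0 to 0.461 CPM, both overlapping. Such genes have near-identical copies, and how reads that fit several copies were counted is not given in the sources used here.

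PSD2, HIP1 and LOXL4 led the genes that were lower in French bulldogs. PSD2, an exchange factor for the small GTPase ARF6, was at 20.5 to 73.6 CPM in French bulldogs with a median of 44.8 and at 88.0, 122, 185 and 157 CPM in boxers 1, 3, 4 and 5. Every boxer lay above every French bulldog. Its log2 fold change of -1.58 (SE 0.252) had the smallest p of the genes with a symbol, with an adjusted p of 0.202 by edgeR's quasi-likelihood test and 0.000376 by DESeq2. HIP1, huntingtin interacting protein 1 of clathrin-mediated endocytosis, was at 158 to 366 CPM with a median of 249 in French bulldogs and at 562, 553, 459 and 515 CPM in boxers. The breeds did not overlap, and the log2 fold change was -1.05 (SE 0.201), with an adjusted p of 0.217 by edgeR and 0.0021 by DESeq2. It held within a narrow range, -1.06 with boxers 1, 3 and 4 and -1.02 with boxer 5 alone.

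LOXL4, a lysyl oxidase-like enzyme that crosslinks collagen and elastin, gave the largest negative fold change but rested on part of the boxers. French bulldogs lay at 0.300 to 4.79 CPM with a median of 2.15. Boxers 1 and 3 were at 164 and 63.4 CPM, and boxers 4 and 5 at 2.97 and 5.34 CPM, so that boxer 4 fell inside the French bulldog range. The log2 fold change of -4.68 (SE 0.871, edgeR adjusted p = 0.217) was -3.38 without boxer 1 and -1.20 against boxer 5 alone. RAB3IP, which activates RAB8 in vesicle transport, split the same boxers, with 139 and 100 CPM in boxers 1 and 3, against 10.7 to 30.2 CPM in French bulldogs. Boxers 4 and 5 lay inside that range, boxer 5 at 24.6 CPM. Its log2 fold change was -1.84 in all and -0.24 against boxer 5 alone.

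Among the 12 genes with a symbol and the smallest p on the lower side, 8 more lay below the boxers in all French bulldogs, with adjusted p of 0.541 or 0.613 by edgeR's quasi-likelihood test. PIK3R6, a regulatory subunit of phosphoinositide 3-kinase gamma, was at 0.849 to 5.18 CPM in French bulldogs and at 6.35, 6.27, 9.19 and 14.4 CPM in boxers, a log2 fold change of -2.01 (SE 0.430). ADAMTS13, the protease that cleaves von Willebrand factor, was at 1.30 to 8.58 against 11.2 to 19.3 CPM (-1.50 on the log2 scale). CCDC78, which takes part in making the many centrioles of multiciliated cells, was at 2.47 to 12.9 against 15.6 to 24.5 CPM (-1.32). STRA6, the cell surface receptor for retinol binding protein, was at 2.56 to 6.89 against 7.62 to 10.7 CPM (-1.22). SLC7A5, the large neutral amino acid transporter LAT1, was at 81.9 to 139 against 151 to 276 CPM (-0.82). TIAM1, an exchange factor for RAC1, had a highest French bulldog and a lowest boxer that both round to 121 CPM, and its log2 fold change of -1.21 came to -0.44 against boxer 5 alone. ANKZF1, which acts in the clearance of stalled ribosomes, and MBD6, a methyl-CpG binding domain protein, had log2 fold changes of -0.74 and -0.64. Together, 19 of the 24 genes with the smallest p did not overlap, a property close to what chose them, against 0.704% of all genes tested.

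**Figure D2:**
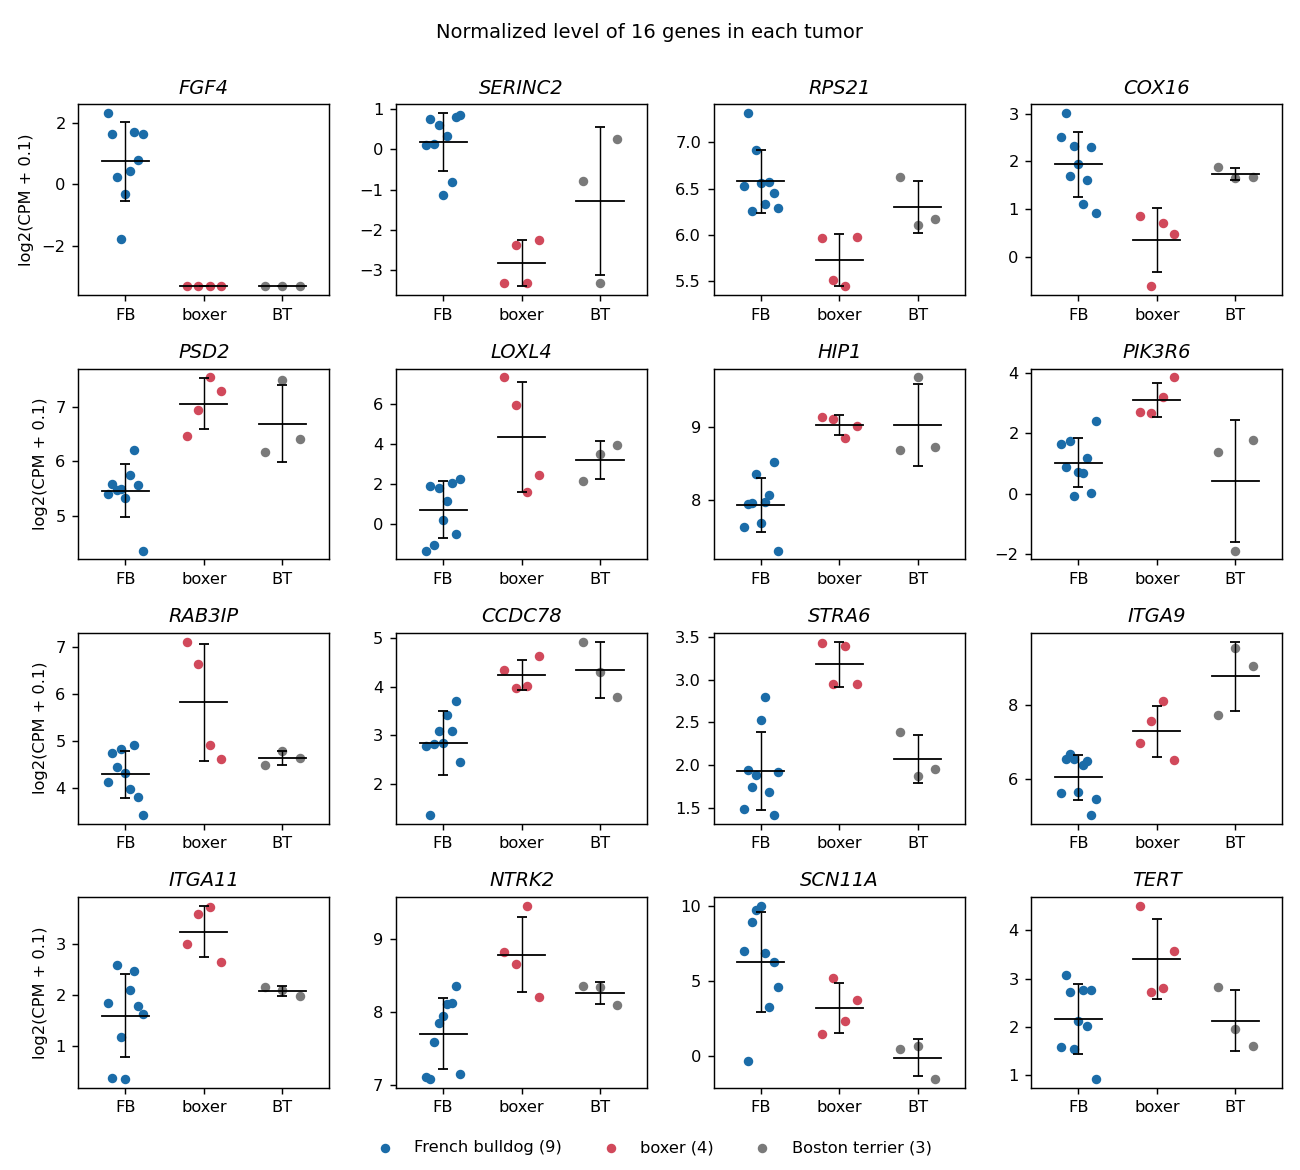
Level of 16 genes in each tumor as log2(normalized CPM + 0.1), with 9 French bulldogs (FB), 4 boxers and 3 Boston terriers (BT). Each point is 1 tumor, the horizontal line the mean and the bar 1 SD of the log2 values, and tumors at 0 sit at the bottom of the FGF4 and SERINC2 panels. LOXL4 and RAB3IP show 2 high and 2 low boxers.

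By DESeq2, 16 of the 24 genes above were among its 37 calls, and 21 of the 37 carried a symbol. Its calls moved with single tumors. Leaving out boxer 5 gave 17 calls, of which 13 were among the 37, and leaving out French bulldog 11 gave 47 calls, of which 30 were among the 37. FGF4, LOXL4, PSD2, HIP1 and RAB3IP were called by DESeq2 with all tumors and without boxer 5. For LOXL4 and RAB3IP boxer 5 was one of the low boxers. DESeq2 was not refitted without boxer 1 or 3, in which these genes were high. By edgeR these genes did not pass adjustment with all tumors.

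Genes present in a single breed were few. Besides FGF4, 4 genes had a count in every French bulldog and 0 in every boxer. ADAMDEC1, a metalloprotease known from macrophages and dendritic cells, was one of them, with 1 to 26 counts in French bulldogs. The other 3, without a symbol, had 1 to 6 counts each. These 4 also had counts in at least 1 Boston terrier, 5, 1 and 7 for ADAMDEC1, so that of the 5 only FGF4 was at 0 in both other breeds. No gene had 0 in every French bulldog and a count in every boxer. With 9 French bulldogs and 4 boxers, a 0 in every tumor is easier to reach in boxers, and 81 genes against 6 were at 0 in 1 breed while reaching 10 counts in some tumor of the other. HOXD8 and HOXD3, homeobox genes of body axis patterning, were 2 of these genes. HOXD8 had 423 counts in French bulldog 11, 124 in French bulldog 1 and no more than 4 in any other tumor of the comparison, and HOXD3 reached 6.38 CPM in French bulldog 11 and 4.12 CPM in French bulldog 1. CCL24, a chemokine, and CCDC152 were likewise at 0 in the 4 boxers, with French bulldog medians of 0.236 and 0.189 CPM.

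Genes that the study tabulated for French bulldogs against boxers and Boston terriers together were drawn from these same French bulldogs and boxers, so their direction here is not independent evidence. Of 31 listed, 24 were matched by symbol and 22 were tested. DLA88 and TOM1L2, whose match is in doubt, are included in both numbers. Unadjusted p was under 0.05 for 9 that were higher and 10 that were lower in French bulldogs, and 7 did not overlap between the breeds, against 3.95%, 3.11% and 0.704% of all genes tested. Among the higher ones, CMPK1, a pyrimidine nucleotide kinase, was at 41.0 to 74.2 against 28.2 to 39.7 CPM (0.65 on the log2 scale). Lower were KY, a muscle peptidase, at 0.849 to 4.38 against 5.66 to 10.2 CPM (-1.48) and SLC12A4, a potassium chloride cotransporter, at 41.7 to 90.3 against 91.2 to 122 CPM (-0.71). SCN11A, the sodium channel subunit Nav1.9, spanned 0.714 to 1021 CPM over the French bulldogs, with a median of 116, while boxers 1, 3, 4 and 5 were at 2.72, 37.2, 5.08 and 13.3 CPM. French bulldogs 9 and 11 lay inside the boxer range and the summed case below it, and the log2 fold change of 4.37 (SE 1.58) had an adjusted p of 0.697 by edgeR's quasi-likelihood test, and was 5.43 without boxer 3. DLA88, a class I histocompatibility gene, was at 5.96 to 98.5 against 12.3 to 56.3 CPM and TOM1L2, an adaptor of vesicle sorting, at 66.1 to 180.2 against 98.1 to 136 CPM, both overlapping, with unadjusted p of 0.669 and 0.381 by edgeR. All these genes were matched by symbol alone. The rows of DLA88 and TOM1L2 held 77 to 1072 and 591 to 2326 counts in the 13 tumors. Both lie well above the mean counts that the study printed under these names. They may not be the genes it called, so their values are not set against its result for them. ANGPTL7, an angiopoietin-like secreted protein, was at 685 CPM in French bulldog 11, which held 98.6% of its French bulldog sum, and at 0.659 to 1.78 CPM in the other 8. Boxers 1, 3, 4 and 5 were at 36.9, 7.19, 1.92 and 3.92 CPM, all above those 8. Its log2 fold change turned with French bulldog 11, from 2.63 (edgeR adjusted p = 0.828) with all tumors to -3.39 (adjusted p = 0.183) without it, and to -3.37 by DESeq2 without it (adjusted p = 0.000219). It also turned with the method. With all 13 tumors it was -3.23 by DESeq2, -1.62 by limma-voom and -1.38 with 1 surrogate variable.

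Integrin subunits leaned to lower levels in French bulldogs. Of 22 measured, 16 had a log2 fold change below 0, 3 had unadjusted p under 0.05 and all 3 were alpha subunits lower in French bulldogs, against 3.11% of all genes tested on that side. ITGA9, which pairs with beta1 to bind tenascin C and other matrix ligands, was at 33.1 to 103 CPM in French bulldogs with a median of 82.9 and at 126, 189, 272 and 92.2 CPM in boxers 1, 3, 4 and 5. Boxer 5 lay inside the French bulldog range, and the log2 fold change of -1.25 (SE 0.322) was -1.46 with boxers 1, 3 and 4 and -0.36 with boxer 5 alone. ITGA11 and ITGA10, both collagen receptors, did not overlap, at 1.18 to 5.91 against 6.21 to 13.2 CPM for ITGA11, with log2 fold changes of -1.56 and -0.82. ITGB1, the shared beta1 chain, was at 108 to 232 CPM in French bulldogs and 90.7 to 152 CPM in boxers. Among 9 ligands of integrin alpha9 none had p under 0.05. Of 21 lysyl oxidases and collagens, 2 did, LOXL4 and the collagen COL20A1 (log2 fold change -1.81), while LOX, LOXL1, LOXL2 and LOXL3 overlapped between the breeds.

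Genes of cell division were higher in French bulldogs in direction, with few members past the unadjusted threshold. Of 26 mitosis genes, 25 had a log2 fold change above 0 with a median of 0.98, against a median of 0.0221 over all genes tested, and 1 had unadjusted p under 0.05. That gene was CCNB2, a cyclin of mitotic entry, at 0.498 to 13.9 CPM in French bulldogs and 0.504, 0.922, 1.15 and 1.85 CPM in boxers (1.95 on the log2 scale). Of 25 S phase genes, 23 were above 0, the median was 0.77 and 6 had p under 0.05, all higher in French bulldogs, against 3.95% of all genes tested. PCNA, the sliding clamp of DNA replication, was at 7.75 to 53.7 against 11.5 to 22.7 CPM (1.14), MCM6 of the replicative helicase at 13.2 to 111 against 21.8 to 30.1 CPM (0.91), and GINS2 of the same complex at 2.25 to 13.7 against 0.369 to 2.72 CPM (1.48). FEN1, UHRF1 and RRM1 had log2 fold changes of 0.85, 1.14 and 0.57. Against boxer 5 alone the values were 0.34 for UHRF1, 1.20 for CCNB2 and 0.85 for GINS2. The breeds overlapped for each of these genes. The summed mitosis level was 223 to 1889 CPM over the French bulldogs with a median of 615, and 272, 241, 449 and 599 CPM in boxers 1, 3, 4 and 5. French bulldogs 7 and 11 were below every boxer, at 238 and 223 CPM, and the summed case was highest. Against boxer 5 alone the median log2 fold change of the mitosis genes was 0.28 and with boxers 1, 3 and 4 it was 1.25.

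Cytosolic ribosomal proteins lay on one side. All 34 measured had a log2 fold change above 0 with a median of 0.41, and 14 had p under 0.05, all higher in French bulldogs, against 3.95% of all genes. Members of a list are measured in the same tumors and can move together. Such counts, here and for the other lists, are therefore not counts of independent results. RPL23 was at 34.4 to 85.8 CPM in French bulldogs and 22.9 to 53.2 CPM in boxers (0.75 on the log2 scale) and RPS27 at 23.8 to 56.4 against 17.7 to 29.4 CPM (0.66). RPS6, the substrate of S6 kinase, was at 97.4 to 206 against 74.2 to 110 CPM (0.63). The summed level was 2936 to 5503 CPM in French bulldogs and 4087, 3067, 2149 and 3230 CPM in boxers 1, 3, 4 and 5, so boxers 1, 3 and 5 lay inside the French bulldog range and boxer 4 below it. As a share of the raw counts of a library, all ribosomal protein genes held 0.570% ± 0.0952 (SD, n = 9) in French bulldogs. The boxers' share was 0.465% ± 0.127 (SD, n = 4), with p = 0.133 and 0.168 after adjustment (two-sided exact permutation test). Ribosomal proteins are short genes with many near-identical pseudogenes, and the small RNA share of the libraries moved in the same direction. With the small non-coding RNAs recognized by symbol removed, the list median was 0.419. The shortest of 4 equal groups of genes by length had a median of 0.0187. The part of pseudogenes in the ribosomal protein result was not tested.

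The proteasome and the chaperones showed the same direction at smaller sizes. Of 25 proteasome subunits, 6 had p under 0.05 and all were higher in French bulldogs, against 3.95% of all genes tested, with a list median of 0.24. PSMB1, a core beta subunit, was at 19.9 to 44.6 against 16.4 to 27.7 CPM (0.64 on the log2 scale), PSMA3 at 24.1 to 52.4 against 17.3 to 29.0 CPM (0.60), and PSMB3 at 8.40 to 14.4 against 5.99 to 8.06 CPM (0.55) with no overlap. Of 11 heat shock genes, 3 had p under 0.05 on the same side, to be read against the same 3.95%. These were the endoplasmic reticulum chaperones HSP90B1 (0.71) and HSPA5 (0.58, and 0.88 without boxer 3) and the cytosolic HSP90AA1 (0.56). The 23 nuclear genes of the mitochondrial respiratory chain measured had a median of 0.19 and 1 member under the threshold.

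**Figure D3:**
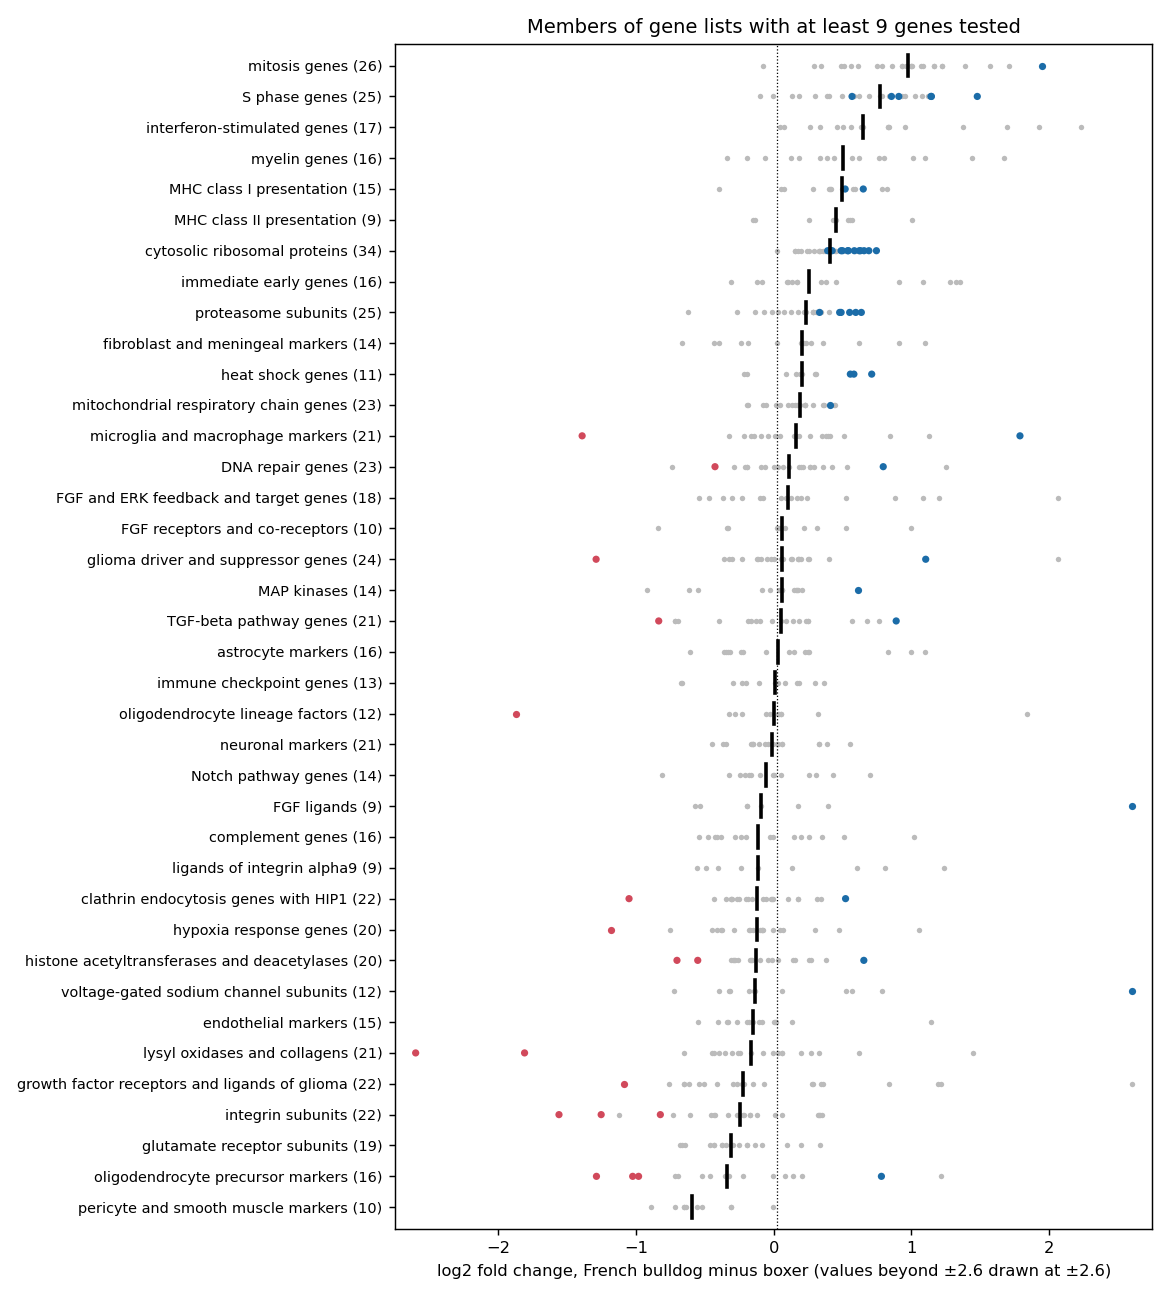
Log2 fold change of every tested member of 38 of the lists with at least 9 members tested, sorted by list median, French bulldog minus boxer. Grey points have unadjusted p of 0.05 or more, blue points have p under 0.05 and are higher and red points lower in French bulldogs, the black bar is the list median and the dotted line the median of all 17052 genes. Mitosis genes head the plot at 0.98 and pericyte and smooth muscle markers close it at -0.60, and values beyond ±2.6 are drawn at the edge.

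Interferon-stimulated genes were by far highest in French bulldog 11. All 17 interferon-stimulated genes tested had a log2 fold change above 0 with a median of 0.65, and none had p under 0.05. ISG15, a ubiquitin-like interferon product, was at 0.384 to 1.68 CPM in 8 French bulldogs, at 32.6 CPM in French bulldog 11 and at 0 to 1.66 CPM in boxers. IFIT1, which binds viral RNA, was at 66.7 CPM in French bulldog 11, 0.165 to 4.28 CPM in the other 8 and 1.72 to 3.96 CPM in boxers. The summed level of the list was 109 to 327 CPM in 8 French bulldogs, 1571 CPM in French bulldog 11, and 172, 287, 261 and 195 CPM in boxers 1, 3, 4 and 5. The list median ran from -0.05 to 0.88 when each tumor was left out in turn. Of 15 genes of MHC class I presentation, 14 were above 0 and 2 had p under 0.05, namely CALR (0.65) and PDIA3 (0.52), chaperones of the endoplasmic reticulum that load peptide, against 3.95% of all genes tested. Of 9 MHC class II genes, 7 were above 0 and 0 had p under 0.05. Of the 18 T and NK cell markers found, 4 passed the filter. CD3E, the T cell receptor chain, reached no more than 0.708 CPM, and MS4A1, which encodes the B cell antigen CD20, no more than 0.645 CPM.

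Microglia and macrophage markers did not lie on one side. Of 21 measured, 14 were above and 7 below 0. GPNMB, a glycoprotein of lipid-laden macrophages, was at 3.10 to 125 CPM in French bulldogs, with every boxer inside that range, and its log2 fold change of 1.79 was 1.04 without French bulldog 10. TMEM119, a marker of resident microglia, was at 0.384 to 2.71 against 0.706 to 6.51 CPM, and its log2 fold change of -1.39 was -0.82 without boxer 4. The summed level of the list was 130 to 708 CPM in French bulldogs and 243 to 403 CPM in boxers.

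Markers of the oligodendrocyte lineage overlapped widely between the breeds. Of 16 precursor markers, 11 had a log2 fold change below 0 with a median of -0.34 (-0.11 without boxer 5), and 3 lower and 1 higher in French bulldogs had p under 0.05, against 3.11% and 3.95% of all genes tested. MEGF11, an adhesion protein with EGF-like domains, was at 38.4 to 90.7 CPM in French bulldogs and 181, 110, 86.1 and 71.9 CPM in boxers 1, 3, 4 and 5. Boxers 4 and 5 lay inside the French bulldog range, and the log2 fold change was -1.02 in all and -0.36 against boxer 5 alone. DSCAM, another adhesion molecule, was at 95.2 to 433 against 243 to 715 CPM (-1.29), and BCAN, the matrix proteoglycan brevican, at 49.0 to 298 against 136 to 778 CPM (-0.98), which came to -0.38 without boxer 5. SCRG1 was higher, at 15.7 to 64.1 against 19.1 to 29.2 CPM (0.78). PDGFRA itself was at 164 to 5124 CPM in French bulldogs with a median of 1348 and at 552, 389, 764 and 841 CPM in boxers, so 5 French bulldogs lay between 1348 and 5124 and 3 lay under every boxer. Of 12 lineage transcription factors, 6 were above and 6 below 0, and ZNF488, a repressor that promotes oligodendrocyte differentiation, was the single member under the threshold (-1.87, low counts, and -1.27 without boxer 4).

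Of 16 myelin genes, 13 had a log2 fold change above 0 with a median of 0.50 and 0 had p under 0.05. The summed level was 751 CPM in the summed case, 9915 CPM in French bulldog 9 and 1554 to 4375 CPM in the others, against 1708 to 2638 CPM in boxers. The boxers lay inside the French bulldog range, and leaving out single tumors moved the list median between -0.02 and 0.76. Astrocyte markers were even, 8 above and 8 below 0, and neuronal markers, which mark brain tissue within a sample, were 8 above and 13 below with 0 under the threshold. SNAP25, a synaptic protein, was at 7.68 to 416 CPM in French bulldogs and 50.0 to 365 CPM in boxers.

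Pericyte markers leaned lower. All 10 pericyte and smooth muscle markers measured had a log2 fold change below 0 with a median of -0.60, and 0 had p under 0.05. PDGFRB, the PDGF receptor of pericytes, was at 22.8 to 168 CPM in French bulldogs and 101 to 148 CPM in boxers. The summed level was 119 to 501 against 333 to 527 CPM. Of 15 endothelial markers, 0 had p under 0.05. Of 11 skeletal muscle markers found, 4 passed the filter, and their median log2 fold change was -0.80, and -0.00135 against boxer 5 alone. Without the filter, which adds members with few counts, the list median was -0.04. Of these 4, TTN had p under 0.05, against 3.11% of all genes tested on the lower side. TTN, the sarcomere protein titin, was at 16.0 to 60.9 CPM in French bulldogs and 48.8, 202, 143 and 65.1 CPM in boxers, while MYH7, the slow muscle myosin, was at 3.29 to 11.6 against 3.06 to 14.6 CPM. The part of muscle tissue in the TTN result was not tested.

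**Figure D4:**
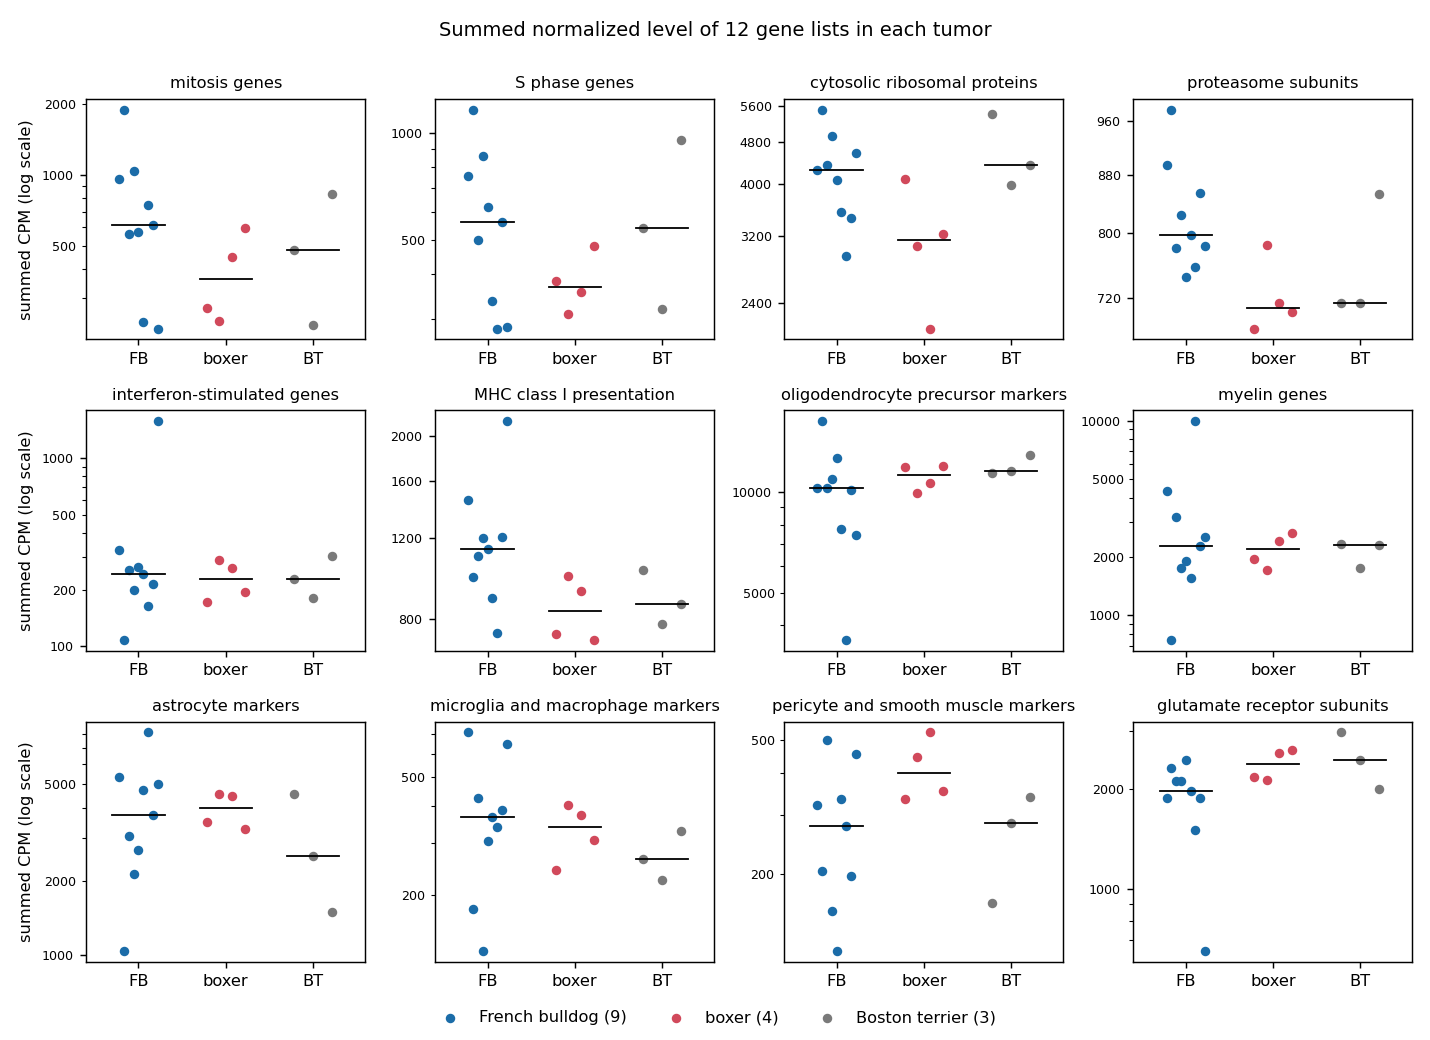
Summed normalized CPM of 12 gene lists in each tumor on a log scale, with 9 French bulldogs (FB), 4 boxers and 3 Boston terriers (BT). Each point is 1 tumor and the line the group median. Interferon-stimulated genes stand at 1571 CPM in French bulldog 11 and myelin genes at 9915 CPM in French bulldog 9, each above all other tumors.

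Growth factor receptors and glioma genes gave few differences. NTRK2, the BDNF receptor TrkB, was at 135 to 327 CPM in French bulldogs with a median of 231 and at 454, 405, 702 and 294 CPM in boxers 1, 3, 4 and 5. It was the single member of 22 growth factor receptors and ligands under the unadjusted threshold, against 7.06% of all genes tested in either direction. Boxer 5 overlapped with the French bulldogs, and the log2 fold change was -1.08 (SE 0.274) in all and -0.41 against boxer 5 alone. Of 24 glioma driver and suppressor genes, CDK6, a cyclin-dependent kinase of G1, was higher at 9.68 to 97.3 against 12.6 to 22.7 CPM (1.10 on the log2 scale). TERT, the catalytic subunit of telomerase, was lower at 1.79 to 8.40 against 22.7, 6.54, 6.90 and 11.9 CPM (-1.29, and -0.78 without boxer 1). These 2 of 24 are to be read against the same 7.06%. ATRX, NF1 and CIC overlapped between the breeds and had unadjusted p of at least 0.197.

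Several growth genes were high in a single French bulldog. IGF2, the insulin-like growth factor, was at 7654 CPM in French bulldog 1, which held 99.8% of the French bulldog sum, at 0.598 to 3.79 CPM in the other 8 and at 24.3, 2.30, 0.479 and 0.218 CPM in boxers. CCND1, cyclin D1, was at 1122 CPM in the same tumor and at 10.1 to 179 CPM in the other 8, against 32.6 to 49.2 CPM in boxers. EGFR, chosen after its values were seen, was at 205 CPM in French bulldog 11 and 139 CPM in boxer 1, and at 2.74 to 37.4 CPM in the other tumors. None of the 3 had unadjusted p under 0.05.

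Other lists held between 0 and 3 members under the unadjusted threshold, where 3.95% of all genes tested were higher and 3.11% lower, so most of these counts are near the background. HIP1 was the lower and PICALM, a clathrin assembly protein, the higher one (0.52 on the log2 scale) of 22 clathrin endocytosis genes, 16 of which were below 0. Of 20 histone acetyltransferases and deacetylases, the acetyltransferases KAT2B (-0.70) and KAT2A (-0.55, and -0.26 without boxer 1) were lower and the deacetylase HDAC2 (0.65) higher. BMPR1A, a BMP receptor, was at 61.6 to 155 CPM in French bulldogs and 51.8 to 79.2 CPM in boxers (0.89), and SMAD7, an inhibitor of TGF-beta signaling, at 11.7 to 28.0 against 26.1 to 45.9 CPM (-0.84). CA9, carbonic anhydrase 9 of the hypoxia response, was at 0.590 to 2.49 against 1.20 to 4.88 CPM (-1.18). Its difference turned to 0.13 with boxer 5 alone. Of 19 glutamate receptor subunits, 16 were below 0 with a median of -0.31 and 0 had p under 0.05. Immune checkpoint, complement, Notch and immediate early genes and X-linked genes had 0 members under the threshold. Lists of DNA repair genes and MAP kinases had 2 and 1, and the neutrophil, B cell and fibroblast lists had 0. The erythroid list had no member that passed the filter.

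Tumors of one breed were spread widely. Breed held 9.39% of the variance in log2 CPM over the genes tested (exact permutation test over 715 splits, one-sided, p = 0.271). The mean Euclidean distance between 2 tumors was 152 among French bulldogs (36 pairs, 99.1 to 212), 116 among boxers (6 pairs, 96.3 to 137) and 139 between the breeds (36 pairs, 95.4 to 202). The within-breed means differed by 36.0, with p = 0.182 in a two-sided exact permutation test over the 715 splits. Over the 48 lists, the SD of the log2 summed level was larger in French bulldogs for 43, and for 35 lists the 4 boxers lay inside the French bulldog range. With 9 tumors a range is wider than with 4 for that reason alone. The 2 libraries of the shared case lay 67.9 apart, against 98.6 to 220 for other pairs of French bulldog libraries, and differed beyond counting noise (chi-square of 9.41 per degree of freedom over 15000 genes).

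Boston terriers, set beside both breeds, did not stand with one of them. For the 24 genes with the smallest p, the Boston terrier mean was nearer to boxers for 12 and nearer to French bulldogs for 12. The boxer-Boston terrier difference shares its boxers with the choice of these genes, so its p-values are not independent of it. FGF4 was at 0 counts in Boston terriers 2, 6 and 7 as in the boxers. HIP1 was at 412, 820 and 425 CPM in Boston terriers, MBD6 at 36.8, 59.8 and 63.2 CPM and CCDC78 at 30.3, 19.7 and 13.7 CPM, with boxer minus Boston terrier log2 differences of -0.08, 0.04 and -0.15. STRA6 was at 5.13, 3.54 and 3.77 CPM, PIK3R6 at 2.47, 0.169 and 3.35 CPM and RAB3IP at 22.5, 27.6 and 24.8 CPM, with differences of 1.13, 2.17 and 1.56. ITGA9, at 211, 733 and 522 CPM, was higher still in Boston terriers than in boxers (-1.52, edgeR unadjusted p = 0.00446).

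Across the 17794 genes of the fit with 3 breeds, 0 (0%) had an adjusted p under 0.05 between boxers and Boston terriers and 659 (3.7%) had an unadjusted one by edgeR's quasi-likelihood test. Of the 120 genes whose levels did not overlap between French bulldogs and boxers, the Boston terriers fell on the boxers' side of every French bulldog for 11, among them FGF4, HIP1, ADAMTS13, CCDC78 and KY. They fell on the French bulldogs' side of every boxer for 49, among them PIK3R6, STRA6, RPS21, COX16, METAP2, ITGA10 and ITGA11, and on neither side for 60. Being clear of 9 tumors is a stricter demand than being clear of 4.

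**Figure D5:**
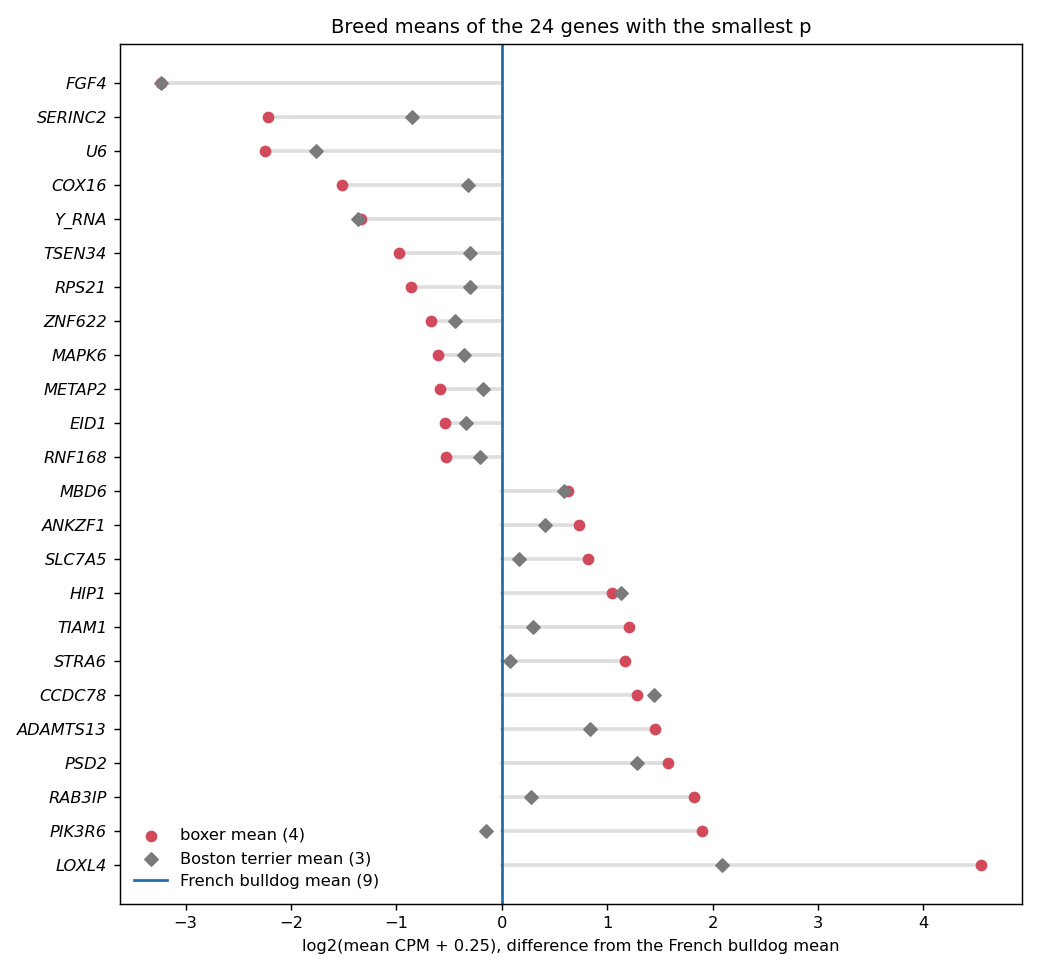
Mean level of the 24 genes with the smallest p in boxers (circles) and Boston terriers (diamonds), as the difference in log2(mean CPM + 0.25) from the French bulldog mean, drawn as the line at 0. HIP1, CCDC78, MBD6 and FGF4 have both breeds together, and STRA6, PIK3R6 and RAB3IP have the Boston terrier mean near the French bulldog line.

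No measure of the libraries passed adjustment between the breeds. Genes with a count numbered 21714 ± 431 (SD, n = 9) in French bulldogs. In boxers they numbered 21119 ± 836 (SD, n = 4), with p = 0.116 (two-sided exact permutation test). The most abundant gene took 25.8% and 23.5% of the counts (p = 0.501 by the same test). Gene length was matched for 11333 of the 11813 genes with a symbol (95.9%), and the median log2 fold change was 0.0187, 0.0232, 0.054 and -0.00273 from the shortest to the longest of 4 equal groups. The level of the longest against the shortest group differed between the breeds by -0.0494 on the log2 scale (exact permutation test, two-sided, p = 0.327).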

How the data were processed

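Per the labels and the methods of the study, paired-end reads of FFPE tumor RNA were trimmed with Trimmomatic 0.33, mapped with HISAT2 2.1.0 to the dog genome canFam6, and counted per gene with featureCounts. That assembly is from a boxer, and its effect on mapping by breed was not tested. The authors deposited raw counts, without normalization, for 29993 Ensembl genes and 18 libraries, and strand and multi-mapping settings are not given in the sources used here.

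Groups came from the labels. Counts of French bulldogs 2 and 8 were summed. French bulldogs (9) were tested against boxers (4) with edgeR 4.0.16 in R 4.3.3 (quasi-likelihood F test, TMM, filterByExpr, robust, two-sided, Benjamini-Hochberg adjustment over all genes tested, threshold 0.05), fitted on these 13 tumors, and SE is the log2 fold change over the square root of F. Boxers and Boston terriers were compared in a fit of 16 tumors. Levels are CPM with TMM over the 16 tumors, and log2 CPM used a prior count of 2. DESeq2 1.42.0, limma 3.58.1 and sva 3.50.0 served as alternatives. The code was tested on simulated data. Single values per tumor were tested over all 715 splits. Some items are not reported here. No test was made on the summed level of a gene list. Gene lengths came from RefSeq for the UU_Cfam_GSD_1.0 assembly, by symbol, and no coordinate is given.

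The tumors compared and the gene lists were chosen with earlier results of these data known. Genes named are the 12 with a symbol and the smallest p in each direction, those the study tabulated, up to 4 of smallest p and the defining markers of each list, and up to 5 at 0 in one breed. Other list members named, such as EGFR, SNAP25, PSMB3 or ITGB1, were chosen after their values were seen. Depth limits are counts of 3 per library. DESeq2 without boxer 5 or French bulldog 11 and the gene length check were added after seeing the data. Figures were made with matplotlib 3.10.9 in Python 3.11.15.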

Additional observations from a re-analysis of the deposited data

Results flagged for a closer look

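FGF4 had 26 counts in French bulldog 6, a library outside the comparison, against 0 in every boxer and Boston terrier. Among 164 groups of values checked (68 genes and 14 lists in each breed), a single tumor stood apart by Dixon's test in 15. The rate of about 1 in 20 holds for independent, normally distributed values. These were CPM without a log scale, and the groups share tumors and genes, so the 15 cannot be set against that rate. IGF2, CCND1 and FGF5 were not among the genes checked.

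French bulldogs 2 and 8 together stood apart in 3 of them. Their summed mitosis genes were at 1889 CPM, against 223 to 1038 CPM in the other 8 French bulldogs. CCNB2 was at 13.9 CPM (others 0.498 to 6.13) and GINS2 at 13.7 CPM (others 2.25 to 5.43). French bulldog 11 stood apart in 3. ANGPTL7 was at 685 CPM there (others 0.659 to 1.78). Its summed interferon-stimulated genes were at 1571 CPM, against 109 to 327 CPM, and its MHC class I presentation genes at 2158 CPM, against 746 to 1455 CPM.

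The myelin genes summed to 9915 CPM in French bulldog 9, against 751 to 4375 CPM. DSCAM was at 433 CPM in French bulldog 5 (others 95.2 to 258), GPNMB at 125 CPM in French bulldog 10 (others 3.10 to 31.4) and ZNF488 at 1.97 CPM in French bulldog 3 (others 0 to 0.718). Among boxers, ANGPTL7 was at 36.9 CPM in boxer 1 (others 1.92 to 7.19), and the lineage factors summed to 2221 CPM in boxer 5, against 1734 to 1804 CPM. BMPR1A was at 79.2 CPM in boxer 4 (others 51.8 to 52.1), KY at 10.2 CPM in boxer 4 (others 5.66 to 5.99) and PSMB1 at 27.7 CPM in boxer 3 (others 16.4 to 18.1).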

How the results depend on the processing

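The number of genes with adjusted p under 0.05 was 0 by edgeR under TMM, DESeq2 size factors, upper quartile scaling, 2 other filters, limma-voom and 1 surrogate variable. It was 37 with the DESeq2 Wald test, 17 with boxer 5 and 47 with French bulldog 11 left out of it, and 0 to 1 when each tumor was left out of the edgeR fit. The 1 was ENSCAFG00000045412 without French bulldogs 2 and 8 and a Y RNA (ENSCAFG00000022575) without boxer 4. The number with unadjusted p under 0.05 was 1204 with edgeR and all 13 tumors, 2000 without a filter on low counts, 1957 with DESeq2, 1956 with DESeq2 without French bulldog 11, and 887 to 1607 over the tumors left out in turn. Boxers against Boston terriers alone gave 1036 genes in place of 659. Of genes with unadjusted p under 0.05, French bulldogs were higher for 674 and lower for 530. These numbers were 447 and 715 with limma-voom, 452 and 648 with 1 surrogate variable, and 800 and 332 with French bulldog 6 included. The cause was not tested. The median log2 fold change of all genes was 0.0221, 0.11 without a filter and 0.133 against boxer 5 alone.

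A replicate block over the numbers 1, 3, 4 and 5 that both breeds' labels share gave 6 genes with adjusted p under 0.05 and 2120 with unadjusted p under 0.05. The same 8 tumors without the block gave 0 and 2125. Deviations of same-numbered tumors correlated at -0.0315, 0.0571, -0.00961 and 0.199, so the numbers do not pair the tumors.

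Of the 68 genes given with a log2 fold change, the direction turned in 9 of 2295 refits. CA9 turned to 0.13 against boxer 5 alone. ANGPTL7, at 2.63 with edgeR and all 13 tumors and between -3.39 (without French bulldog 11) and 4.14 (without boxer 1) over the tumors left out, turned to -3.23 with DESeq2 (-3.53 without boxer 5 and -3.37 without French bulldog 11), -1.62 with limma-voom, -1.38 with 1 surrogate variable, -2.58 with the replicate block and -3.38 in the same 8 tumors without it. Depth limits SERINC2, FGF4, ZNF488 and U6, which have few counts.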
